A study of Homo sapiens with 10 samples.

Results

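TMD8 and OCI-LY10 are established human lines of a lymphoma of large B cells, the activated B-cell-like (ABC) type. The RNA-seq libraries compared here are 2 of OCI-LY10 and 3 of TMD8, 5 of the 10 samples in the series. They were chosen by label alone: OCI-LY10 with the shRNAs against the transcription factor STAT3 numbered 10 and 16, and every TMD8 RNA-seq library. All cells had been transduced with an shRNA and kept in doxycycline at 20 ng/ml for 2 days. By the labels the TMD8 libraries are 1 control shRNA and STAT3 shRNAs 10 and 16, but the deposited TMD8 columns carry no names. They are therefore called the first, the second and the third TMD8 column, in file order, and enter as 1 group. Within each line every library carries a different shRNA, so p-values measure only the spread between these libraries. The cell line, the mix of shRNAs and the deposited table differ between the groups together and cannot be told apart. The OCI-LY10 library labelled control shRNA is outside the comparison, and its values are given beside it. The 4 ChIP-seq samples are not analysed here.

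By gene expression, large B-cell lymphomas are divided into the ABC type and a type resembling germinal centre B cells. The activated type is known for sustained signalling from the B cell receptor and MYD88 to the transcription factor NF-kB. NF-kB induces the cytokines IL6 and IL10, which act through JAK kinases on STAT3. IRF4, a transcription factor of the plasma cell program, is high in this type, while BCL6 and LMO2 mark germinal centre B cells. The comparison describes how far these libraries of 2 lines of this one type differ.

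Expression was measured as FPKM, a read count adjusted for the length of the gene and the size of the library. Values are given for OCI-LY10 in the order shRNA 10, shRNA 16, and for TMD8 in file order. Differences are means of log2(FPKM + 1) in OCI-LY10 minus TMD8, a scale on which the change of low genes is understated. A gene is called where limma's adjusted p, corrected over all 11326 genes tested, is below 0.05. The sums of FPKM lay between 905356 and 1382650 over the 6 RNA-seq libraries, and small RNA genes made up 57.8% and 58.1% of them in OCI-LY10, 22.5%, 28.7% and 43.3% in TMD8 and 49.0% in the library labelled control shRNA. Absolute depth is unknown. Median-of-ratios factors over the 5 libraries lay between 0.983 and 1.03, so scaling by them would change levels little. Such factors assume that most genes do not differ, so they cannot show that the separately deposited tables share a scale. A listed 0 need not mean absence, since RPS18, a ribosomal protein gene of every cell, was at 0 in every library. Genes are therefore described as listed at 0, and no fold is given against a group at 0.

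STAT3, the targeted gene, stood at 11.1 and 10.6 FPKM in OCI-LY10 and at 120.3, 24.3 and 22.5 FPKM in TMD8. The first TMD8 column was far above the other columns, and both OCI-LY10 libraries were below all 3. The difference was −1.81 (SE 0.74) and was not called (limma adjusted p = 0.0774). Without the first TMD8 column it was −1.04 and was called (limma adjusted p = 0.00216). It was also called without the third column, at −2.23 (limma adjusted p = 0.0487). The OCI-LY10 library labelled control shRNA held 16.5 FPKM of STAT3.

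B cell identity was checked against defining markers. All 6 B cell markers and all 7 markers of the activated type were at 1 FPKM or more in each of the 5 libraries. Summed T cell markers reached at most 0.2 FPKM in any of them, and the granulocyte markers MPO, ELANE and S100A8 were listed at 0. EPCAM, an epithelial adhesion gene, stood at 4.39 and 4.39 FPKM in OCI-LY10 and was listed at 0 in TMD8, while KRT19 was listed at 0 in all 5.

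Pearson's r of log2(FPKM + 1) over 10997 genes, small RNA genes left out, was 0.994 between the OCI-LY10 STAT3 shRNA libraries. It lay between 0.981 and 0.993 among the TMD8 columns, and between 0.795 and 0.814 across the lines. The OCI-LY10 library labelled control shRNA stood apart from its own line. Its r was 0.847 and 0.846 with the OCI-LY10 STAT3 shRNA libraries, against 0.937, 0.94 and 0.961 with the TMD8 columns. Of 3413 genes called at least 2-fold different between the groups, it was nearer to TMD8 for 2491. These correlations are across genes, which are not replicates, so no p is given.

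**Figure D1:**
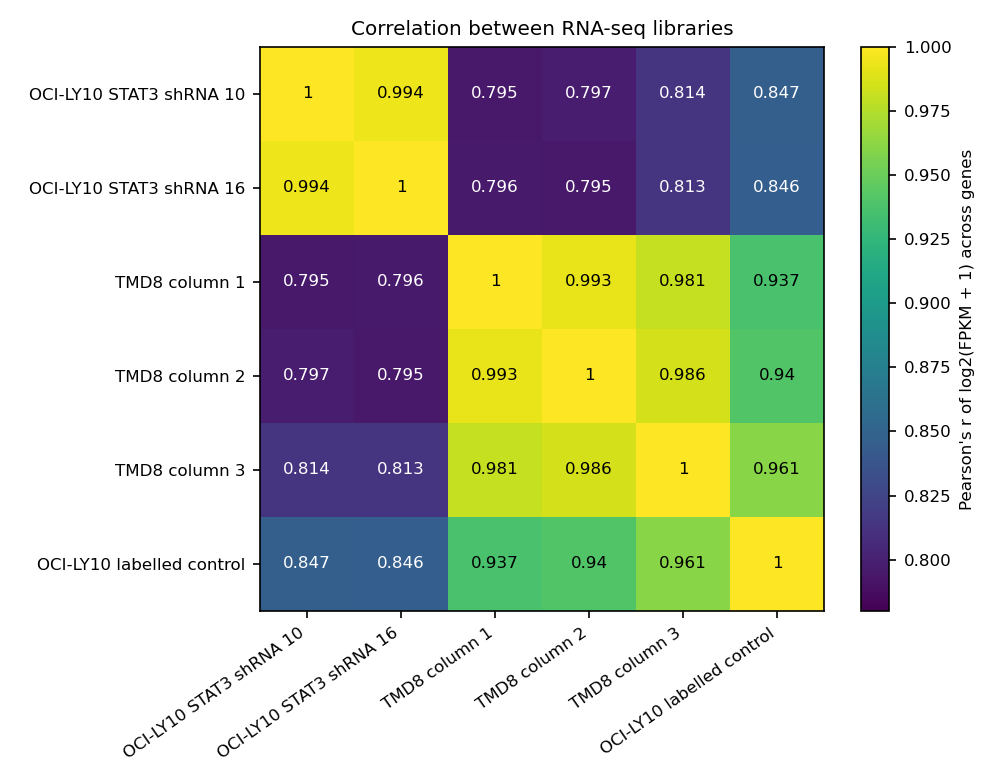
Correlation (Pearson's r, log2(FPKM + 1), small RNA genes left out) for each pair of the 6 RNA-seq libraries (rows and columns). The OCI-LY10 STAT3 shRNA libraries form 1 block at 0.994, and the library labelled OCI-LY10 control reaches 0.937 to 0.961 with TMD8 but 0.846 and 0.847 with its own line.

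The groups differed over much of the expressed genome. In OCI-LY10, 3479 genes were higher, 30.7% of those tested, and 3857 were lower, 34.1%. At least 2-fold differences were called for 1515 higher genes, 13.4%, and 1898 lower genes, 16.8%. In either direction these were 64.8% called and 30.1% called at 2-fold or more. Both OCI-LY10 libraries lay above every TMD8 column for 38.2% of genes and below every one for 40.9%. The median difference over all genes was −0.02. Values under 0.1 FPKM in the third TMD8 column stood to those of the OCI-LY10 columns, after 1 common factor per pair, in ratios of whole numbers up to 3 (within 1%) for 63.1% and 69.1% of genes low in both. For the other TMD8 columns the share was 5.38% to 6.83%. Between these columns themselves it was 11.6%, and it was 7.24% and 5.41% between them and the third column. With the library labelled control shRNA it was 55.7% and 55.7% for the OCI-LY10 columns and 57.3% for the third TMD8 column. For the first and the second TMD8 column it was 5.79% and 5.96% with that library. The TMD8 group was thus not uniform in its low values. Why the first and the second column differ in this from the third column was not tested. Against that column alone 1487 genes were at least 2-fold higher and 1592 lower, and they included 1258 of the 1515 and 1469 of the 1898. Adding the library labelled control shRNA to OCI-LY10 left 468 higher and 704 lower.

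Some genes were seen in 1 group alone, where OCI-LY10 stands for its STAT3 shRNA libraries. At 5 FPKM or more in one group and 0.5 or less throughout the other, 150 genes were seen in OCI-LY10 alone and 153 in TMD8 alone. Small RNA genes, whose share of the libraries was higher in OCI-LY10, were 36 of the first set and 2 of the second, and the part of that share in the counts was not tested. Outside them, 114 genes were left for OCI-LY10, of which 22 are protein-coding genes with ZNF symbols, and 151 for TMD8, of which 1 is. The library labelled control shRNA held at most 0.5 FPKM for 93 of the 114 and for 1 of the 151. It held at least 5 FPKM for 3 of the 114 and 109 of the 151. With it counted as OCI-LY10, 24 of the 150 and 2 of the 153 were left.

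The 12 genes with the widest gap in each direction are described next, with small RNA, HLA, immunoglobulin and T cell receptor segment, unnamed, XIST and Y-linked genes left out. Some left-out genes had wider gaps. UCHL1, a ubiquitin hydrolase of neurons, stood at 123 and 137 FPKM in OCI-LY10 and was listed at 0 in every TMD8 column. SNURF, an imprinted gene expressed from the paternal copy, stood at 119 and 133 FPKM and was likewise listed at 0 in TMD8. APP, the amyloid precursor protein, stood at 109 and 112 FPKM against 0 in all 3 TMD8 columns. Each of these genes was thus abundant in both OCI-LY10 libraries and at 0 throughout TMD8. CDH2, or N-cadherin, reached 94.7 and 107 FPKM in OCI-LY10 and was listed at 0 in TMD8. RCAN2, a regulator of calcineurin, stood at 106 and 126 FPKM in OCI-LY10 and 0.141, 0.0823 and 0.291 FPKM in TMD8, a difference of 6.64 (SE 0.13, limma adjusted p = 5.38e-06). LILRA4, a receptor of plasmacytoid dendritic cells, differed between the shRNAs, at 91 and 186 FPKM, but both were far above the 0.467, 0.678 and 0.766 FPKM of TMD8. The cancer-testis antigen genes MAGEA1, at 80.9 and 64.3 FPKM, and CTAG2, at 63.3 and 70.2 FPKM, were listed at 0 in TMD8. NLRP2, SLC5A5 (the iodide transporter), CDK14 and the interferon-induced gene LY6E complete the 12, with OCI-LY10 values between 39.5 and 97.3 FPKM and no TMD8 value above 0.161 FPKM. In the library labelled control shRNA none of the 12 exceeded 1.48 FPKM.

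In the other direction the widest gaps among protein-coding genes of this selection were in TCL1A and TCL1B, lymphoid co-activators of the kinase AKT. TCL1A stood at 0.0396 and 0.108 FPKM in OCI-LY10 and 600.2, 595 and 589.5 FPKM in TMD8, a difference of −9.12 (SE 0.08, limma adjusted p = 2.06e-06). TCL1B stood at 0.0979 and 0.134 FPKM and 543, 509 and 399.7 FPKM. VIM, the intermediate filament vimentin, was at 0.0731 and 0.1 FPKM in OCI-LY10 and 169, 179 and 105 FPKM in TMD8. These genes were near 0 in 1 group and among the abundant transcripts of the other. They were picked by the gap between the groups, so the lack of overlap was given by the choice. S100A4, a calcium-binding protein of motile cells, stood at 1.38 and 1.47 FPKM in OCI-LY10 and 347, 288 and 304 FPKM in TMD8. CD24, a surface glycoprotein of B cells, stood at 0.969 and 0.896 FPKM and 170.5, 186 and 196 FPKM. PRDX2, a peroxidase, stood at 0.0565 and 0 FPKM and 126, 105 and 74.7 FPKM. CYTIP, GPR15, GPRC5B, MYO1G and SPIC, an ETS family transcription factor, were at most 0.122 FPKM in OCI-LY10 and at least 49.5 FPKM in TMD8. RNA45S5, the ribosomal RNA precursor, was listed at 0 in every OCI-LY10 column, the labelled control included, and stood at 3436, 2095 and 1121 FPKM in TMD8. For the 11 protein-coding genes the library labelled control shRNA held between 15 and 474 FPKM.

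**Figure D2:**
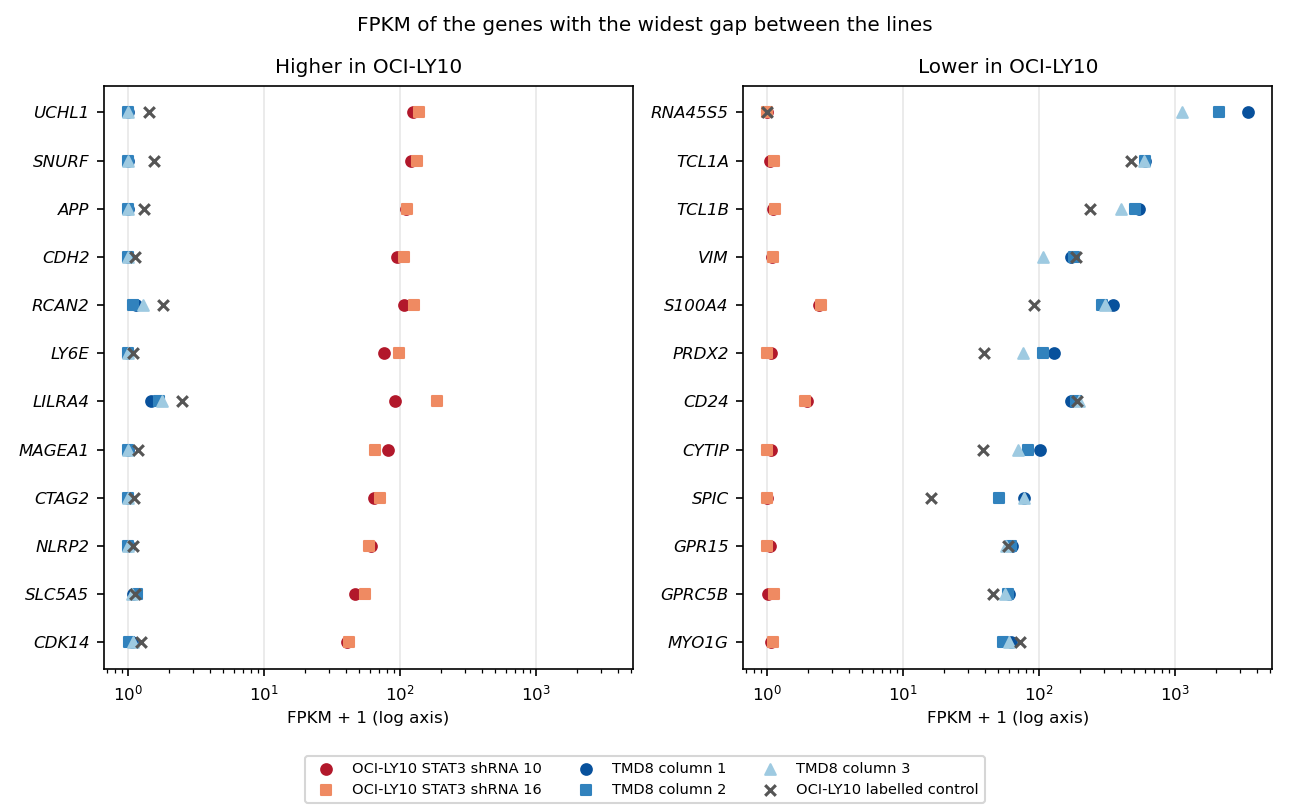
FPKM + 1 (log axis) of the 12 genes with the widest gap in each direction after the exclusions named above, 1 point per library. The genes were picked by this gap, so that OCI-LY10 STAT3 shRNA libraries and TMD8 columns do not overlap was given by the choice. The crosses of the labelled OCI-LY10 control, which had no part in the choice, lie nearer to the TMD8 points except for RNA45S5.

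The start regions of UCHL1 and TCL1A were chosen with the values known. They are shown because these genes had the widest gap in their direction among protein-coding genes of the selection above. Both regions hold CG dinucleotides, the sites of DNA methylation, which was not tested. The 250 bases before each start are printed from RefSeq (GRCh38.p14), 5′ to 3′ along the gene, with each CG in capitals. UCHL1 lies at chr4:41256678-41256927 on the plus strand and holds 20 of them, and TCL1A at chr14:95714126-95714375 on the minus strand holds 23. In the longer windows used below, which reach past the start, UCHL1 held 25 and TCL1A 26. The median over 8866 tested genes was 27, so neither count was unusual.
UCHL1: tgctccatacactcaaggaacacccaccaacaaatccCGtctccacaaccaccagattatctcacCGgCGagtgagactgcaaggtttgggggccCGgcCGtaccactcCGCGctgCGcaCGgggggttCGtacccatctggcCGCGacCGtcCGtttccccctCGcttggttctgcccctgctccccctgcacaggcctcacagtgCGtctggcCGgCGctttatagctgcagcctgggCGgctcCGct
TCL1A: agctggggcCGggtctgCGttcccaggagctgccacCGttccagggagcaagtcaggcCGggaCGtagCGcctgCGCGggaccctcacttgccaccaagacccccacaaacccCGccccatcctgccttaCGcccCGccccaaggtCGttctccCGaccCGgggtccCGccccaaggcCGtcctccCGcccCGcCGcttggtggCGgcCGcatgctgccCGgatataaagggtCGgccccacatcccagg

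B-cell lineage genes were split between the lines. Of 21 tested, 12 were higher in OCI-LY10 and 5 lower, with a list median of 0.68, where 30.7% and 34.1% of all genes were called. The counts of every list below stand beside these same shares, and a split near them is nothing particular to a list. FCER2, the low-affinity IgE receptor, was at 17.3 and 20.9 FPKM in OCI-LY10 and 0.0399, 0 and 0 FPKM in TMD8. BLK, a kinase of the B cell receptor, was at 87.9 and 93.5 FPKM against 6.08, 4.35 and 3.97 FPKM, a difference of 4.00 (SE 0.17, limma adjusted p = 3.44e-05). Surface antigens were among the higher genes. MS4A1, which encodes CD20, stood at 305 and 295 FPKM in OCI-LY10 and 46, 40.3 and 41.1 FPKM in TMD8. CD22, an inhibitory receptor of B cells, went the other way, at 23 and 29.3 FPKM and 95.8, 79.4 and 94 FPKM (−1.74, limma adjusted p = 0.000272). The 4 other lower genes encode transcription factors: IKZF1, TCF3, EBF1 and SPIB, with differences from −1.50 to −0.43. PAX5, the factor that sets B cell identity, stood at 88.1 and 92.2 FPKM and 86.9, 80.9 and 90.8 FPKM and was not called (limma adjusted p = 0.557). With the labelled control library added to OCI-LY10, 3 members were higher and 1 lower. Over all 11340 genes of that fit, 954 were higher and 1386 lower, so calls were lost far beyond this list. Counts with that library added in the lists below stand beside the same loss.

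Markers of the activated type moved in both directions. Of 23 tested, 10 were higher in OCI-LY10 and 7 lower, and the median was 0.27, or −0.01 against the third TMD8 column alone. PIM1, a kinase gene induced by STAT proteins, stood at 321 and 352 FPKM in OCI-LY10 and 137, 140.3 and 96.8 FPKM in TMD8 (1.44, limma adjusted p = 0.00126). CCND2, or cyclin D2, stood at 126 and 114 FPKM against 41.7, 48 and 46.1 FPKM (1.39, limma adjusted p = 0.000183). Both were above every TMD8 column, as were 38.2% of all genes. IRF4 was lower in OCI-LY10, at 73.8 and 80.8 FPKM against 585, 604 and 478 FPKM (−2.82, SE 0.13, limma adjusted p = 4.62e-05). BATF, its binding partner in lymphocytes, was at 59.9 and 66.7 FPKM against 201, 197 and 231 FPKM. PRDM1, which encodes the plasma cell repressor BLIMP1, was almost absent from OCI-LY10, at 0.685 and 0.585 FPKM, and stood at 31.2, 27.8 and 23.6 FPKM in TMD8 (−4.12, limma adjusted p = 1.83e-05). BACH2, a repressor of PRDM1, had the opposite pattern, at 13.1 and 15 FPKM in OCI-LY10 and 0.139, 0.241 and 0.292 FPKM in TMD8 (3.62, limma adjusted p = 1.71e-05). MYC, BCL2 and MCL1 were not called, with differences of 0.04, −0.06 and −0.01. Counting the labelled control library as OCI-LY10 left 1 higher and 3 lower, with PIM1 at 0.58 and IRF4 at −2.02 no longer called (limma adjusted p = 0.557 and 0.0772).

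Of 14 plasma cell genes, 7 were higher and 4 lower in OCI-LY10. TNFRSF17, the receptor BCMA, stood at 39.8 and 35 FPKM in OCI-LY10 and 3.9, 2.06 and 1.71 FPKM in TMD8 (3.48, limma adjusted p = 0.000207). POU2AF1, a co-activator of immunoglobulin genes, stood at 197 and 181 FPKM and 50.1, 41.3 and 21 FPKM. XBP1, a factor of secretory cells, was higher by 0.73, with 77.5 and 67.4 FPKM against 50, 47.8 and 33.7 FPKM. SDC1, the plasma cell antigen CD138, was lower, at 0.251 and 0.301 FPKM against 4.84, 5.27 and 4.34 FPKM. The higher and lower members thus included antigens and factors of the same program. The labelled control library, when added, left 1 call, a lower gene.

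Germinal centre genes were mostly lower in OCI-LY10, 9 of 14 tested, with 3 higher and a median of −1.15. Without SERPINA9, listed at 0 in OCI-LY10 and at 4.1, 4.57 and 14.4 FPKM in TMD8, the median was −0.80, and its call was lost without OCI-LY10 shRNA 10 (limma adjusted p = 0.0501). LMO2 stood at 0.102 and 0 FPKM in OCI-LY10 and 23.6, 23.6 and 35.2 FPKM in TMD8 (−4.74, limma adjusted p = 3.37e-05). BCL6 was higher in OCI-LY10, at 27 and 38.7 FPKM against 19.3, 23.9 and 17.8 FPKM (0.65, limma adjusted p = 0.0304). Its call was lost without OCI-LY10 shRNA 16 (0.40, limma adjusted p = 0.186), without the first or the third TMD8 column (0.62 and 0.57, limma adjusted p = 0.0818 and 0.0607) and against the third column alone (0.83, limma adjusted p = 0.104). STAP1, an adaptor of B cell receptor signalling, was at 5.98 and 7.25 FPKM against 0.405, 0.368 and 0.421 FPKM. Counting the labelled control library as OCI-LY10 left 1 gene higher and 2 lower.

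Genes of B cell receptor signalling divided almost evenly, as did all genes tested. Of 29 tested, 12 were higher and 11 lower in OCI-LY10, beside 30.7% and 34.1% of all genes. The receptor subunits were higher: CD79B stood at 1139 and 1226 FPKM in OCI-LY10 and 348, 289.9 and 326 FPKM in TMD8 (1.88, limma adjusted p = 9.45e-05), and CD79A at 720.0 and 884 FPKM and 373, 305 and 313 FPKM. PLCG2, the phospholipase next in the chain, was higher by 1.70, and PRKCB, the kinase it activates, by 1.04. LYN, the kinase that both starts and limits the signal, was lower, at 98.1 and 104 FPKM against 283, 277 and 311 FPKM (−1.51, limma adjusted p = 0.000107). BTK was lower, at 90 and 84.7 FPKM against 160.1, 146 and 181 FPKM. Of genes that pass the signal to NF-kB, BCL10 was lower by 0.92 on the log2 scale, while MALT1 was not called (0.19, limma adjusted p = 0.118). The inhibitory phosphatases differed in direction, with INPP5D higher at 1.52 and PTPN6 lower at −1.51. Counting the labelled control library as OCI-LY10, 2 genes were higher and 4 lower.

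Toll-like receptor genes showed receptors moving both ways. Of 20 tested, 9 were higher and 6 lower in OCI-LY10, with a median of 0.03, or 0.39 against the third TMD8 column alone. CD180, a TLR4-related receptor of B cells, stood at 29.9 and 34.7 FPKM in OCI-LY10 and 3.62, 2.93 and 3.99 FPKM in TMD8 (2.89, limma adjusted p = 5.14e-05). TLR10 stood at 34.8 and 33.1 FPKM and 4.23, 3.38 and 5.46 FPKM. TLR7, a sensor of RNA, was lower, at 0.511 and 0.579 FPKM against 6.42, 6.81 and 5.18 FPKM, and TLR9, a sensor of DNA, was not called (−0.12, limma adjusted p = 0.685). Of the adaptors and kinases, MYD88 was higher at 0.83, IRAK1 was higher at 0.34, and the inhibitor IRAK3 was lower, at 0.0753 and 0.0973 FPKM against 4.02, 4.52 and 4.89 FPKM. The labelled control library, when added, left 6 higher and 4 lower.

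NF-kB pathway and target genes were lower in OCI-LY10 in 15 of 29 cases and higher in 5, with a median of −0.38. TRAF3, an inhibitor of the alternative NF-kB pathway, stood at 1.69 and 1.86 FPKM in OCI-LY10 and 40.9, 39.8 and 36.3 FPKM in TMD8 (−3.85, SE 0.10, limma adjusted p = 8.84e-06). TNFAIP2, an NF-kB target, stood at 0.593 and 0.747 FPKM and 30.5, 30.7 and 22.8 FPKM. The subunit RELB was lower, at 14.8 and 16.9 FPKM against 54, 45.8 and 31.8 FPKM, and NFKB1 was lower by 0.66 on the log2 scale. BIRC3, which acts with TRAF3 in that pathway, was higher, at 20.5 and 25.2 FPKM against 6.12, 5.09 and 7.85 FPKM (1.71, limma adjusted p = 0.000738). TNFAIP3, the inhibitor A20, was not called (0.34, limma adjusted p = 0.105). Adding the labelled control library left 2 higher and 5 lower.

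Among lists with more than 10 tested members, cytokines and chemokines had the lowest median, −1.65, or −1.51 without CXCL10, which was listed at 0 in OCI-LY10. Of 15 tested, 10 were lower in OCI-LY10 and 1 was higher, IL16. IL10 stood at 1.39 and 2.44 FPKM in OCI-LY10 and 87.1, 72.6 and 89 FPKM in TMD8 (−4.87, SE 0.19, limma adjusted p = 2.65e-05). IL6 stood at 0.0481 and 0 FPKM and 3.51, 2.92 and 2.5 FPKM. CCL22, a chemokine for CCR4-bearing T cells, stood at 1.87 and 1.62 FPKM and 109.5, 75 and 51.1 FPKM. IL32 stood at 0.348 and 1.22 FPKM and 40.2, 26.9 and 44 FPKM. In each of these 4 genes both OCI-LY10 libraries were below every TMD8 column, as they were for 40.9% of all genes. In the library labelled control shRNA, IL10 stood at 97.3 FPKM, IL6 at 10.9 FPKM and CCL4 at 56.6 FPKM, and with it 1 gene was higher and 1 lower.

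Cytokine receptors were lower in 10 of 19 cases and higher in 2. IL2RB, a shared chain of the IL2 and IL15 receptors, stood at 0.564 and 0.991 FPKM in OCI-LY10 and 31.4, 37.6 and 23.4 FPKM in TMD8 (−4.15, limma adjusted p = 6.8e-05). IL13RA1 stood at 0.0248 and 0.0848 FPKM and 9.69, 7.59 and 7.97 FPKM. IL6R was lower by 0.62 on the log2 scale, while IL6ST, the signalling chain it needs, was not called (0.25, limma adjusted p = 0.129). IL10RA was higher, at 69.8 and 73.6 FPKM against 37, 35.1 and 33.8 FPKM (1.00, limma adjusted p = 0.00032). Adding the labelled control library left 6 calls, all lower genes.

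JAK-STAT genes held 6 higher and 9 lower of 24 tested. JAK2 was lower in OCI-LY10, at 1.36 and 1.22 FPKM against 13.2, 13.7 and 15 FPKM (−2.71, limma adjusted p = 2.46e-05), while JAK1 was not called (−0.06, limma adjusted p = 0.656). The feedback inhibitor SOCS3, a known target of STAT3, stood at 1.23 and 1.5 FPKM in OCI-LY10 and 15.5, 16.6 and 15.5 FPKM in TMD8 (−2.84, SE 0.10, limma adjusted p = 2.14e-05). SOCS1 stood at 0.279 and 0.637 FPKM and 13.9, 12.5 and 4.26 FPKM, a call lost without OCI-LY10 shRNA 10 (limma adjusted p = 0.0546). SOCS3 was even across the TMD8 columns, among which STAT3 was not, and a relation between them was not tested. PTPN2, a phosphatase of the pathway, was lower by 2.29 on the log2 scale. Adding the labelled control library left 1 higher and 4 lower.

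Receptors for chemokines and position were higher in 5 and lower in 4 of 11 cases. CXCR4, which holds cells in bone marrow and the germinal centre dark zone, stood at 1.54 and 1.27 FPKM in OCI-LY10 and 66.9, 62.3 and 55.3 FPKM in TMD8 (−4.70, limma adjusted p = 8.84e-06). CXCR5, the receptor for follicle entry, was higher, at 129 and 138 FPKM against 59, 58.4 and 47.7 FPKM. Adhesion and cytoskeleton genes were lower in 16 of 27 cases and higher in 6, with a median of −0.88. ITGB7, an integrin chain of gut homing, was among the higher, at 48.8 and 56.3 FPKM against 5.21, 3.68 and 2.65 FPKM. CDH1, or E-cadherin, from the list of epithelial genes, was at 0.0102 and 0 FPKM in OCI-LY10 and 16.2, 17.2 and 15.8 FPKM in TMD8, the reverse of CDH2. After adding the labelled control library, the adhesion list held 1 call, a higher gene.

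Antigen presentation genes outside the HLA locus were lower in 8 of 15 cases and higher in 3. The costimulatory ligand CD86 stood at 0.477 and 0.563 FPKM in OCI-LY10 and 61.7, 57.2 and 59.4 FPKM in TMD8 (−5.31, SE 0.09, limma adjusted p = 4.04e-06). CD58, the ligand of CD2 on T cells, was listed at 0 in OCI-LY10 and stood at 15.5, 15.3 and 20 FPKM in TMD8. TAP1, TAP2, TAPBP, PSMB8 and PSMB9, of peptide processing, were listed at 0 in all 5 libraries and give no measurement. B2M, the light chain of class I molecules, was at 792 and 808 FPKM against 1513, 1521 and 1520.0 FPKM (−0.92, limma adjusted p = 0.000422). CIITA, the class II transactivator, was higher by 0.47 (limma adjusted p = 0.00659). CD58 and CD86 thus stood far from the rest of the list, whose called differences lay between −1.80 and 0.85. Adding the labelled control library left 1 higher and 2 lower.

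Start regions of IL10 and CD86, also chosen with the values known, are shown because both genes were low in OCI-LY10 and abundant in TMD8 while their start regions hold few CG dinucleotides. Each of the 250-base stretches before the start holds 2, in capitals as before. IL10 lies at chr1:206772495-206772744 on the minus strand and CD86 at chr3:122055112-122055361 on the plus strand (RefSeq, GRCh38.p14).
IL10: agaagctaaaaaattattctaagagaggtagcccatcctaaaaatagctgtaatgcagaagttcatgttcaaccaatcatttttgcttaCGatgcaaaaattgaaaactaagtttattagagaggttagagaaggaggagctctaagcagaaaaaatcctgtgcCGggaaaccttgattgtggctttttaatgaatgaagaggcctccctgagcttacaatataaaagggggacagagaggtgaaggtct
CD86: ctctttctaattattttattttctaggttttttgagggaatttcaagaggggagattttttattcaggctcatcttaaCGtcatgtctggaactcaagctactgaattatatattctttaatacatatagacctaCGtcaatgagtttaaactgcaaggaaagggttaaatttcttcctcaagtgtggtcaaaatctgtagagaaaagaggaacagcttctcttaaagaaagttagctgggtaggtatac

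Of the BCL2 family, 8 of 16 tested were lower in OCI-LY10 and 3 higher. The lower genes included both killers and protectors. BCL2L11, which encodes the death-promoting BIM, stood at 28.5 and 25.2 FPKM in OCI-LY10 and 177, 194 and 142 FPKM in TMD8 (−2.61, limma adjusted p = 9.23e-05). BBC3, which encodes PUMA, stood at 0.864 and 1.29 FPKM and 20.7, 22 and 13.6 FPKM. BCL2A1, a survival gene, stood at 25.8 and 32.6 FPKM and 178, 157 and 215 FPKM. BIK was higher, at 5.53 and 4.82 FPKM against 0.558, 0.64 and 0.735 FPKM. The p53 pathway was lower in 13 of 21 cases and higher in 1, with a median of −0.70. MDM2, a ubiquitin ligase, was lower by 0.70 on the log2 scale (limma adjusted p = 0.00111), and GADD45A, a stress-induced gene, by 2.56. CDKN1A, an inhibitor of CDKs, was not called (0.35, limma adjusted p = 0.0769). After adding the labelled control library, the calls were 7 lower genes in the p53 pathway and 3 lower genes in the BCL2 family.

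DNA replication genes were higher in OCI-LY10 in 24 of 28 cases, and their median was 0.94. By limma 0 were lower, also at an unadjusted p below 0.05. MCM3, a subunit of the replicative helicase, stood at 378 and 353 FPKM in OCI-LY10 and 43, 38 and 57.7 FPKM in TMD8 (2.98, SE 0.19, limma adjusted p = 0.000106). GINS2, which joins that helicase, stood at 141 and 139 FPKM and 19.1, 14.6 and 27.6 FPKM. RRM2, which makes nucleotides, was higher by 2.55. For all 3 the third TMD8 column was the highest of the TMD8 columns and still below both OCI-LY10 libraries. RFC2, GINS3, TYMS and CDT1 were not called. Against the third column alone 18 were higher and the median was 0.74. With the labelled control library added 20 were higher, and that library's own median over the list was 0.83 above TMD8.

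Of the D cyclins, CDKs and their inhibitors, 8 of 17 were higher and 4 lower. CCND3, or cyclin D3, stood at 64.6 and 64.2 FPKM in OCI-LY10 and 14.3, 13.2 and 13.8 FPKM in TMD8 (2.15, limma adjusted p = 2.74e-05). CCND1, or cyclin D1, was near absent from OCI-LY10, at 0.0115 and 0.0316 FPKM, and stood at 4.33, 3.79 and 2.88 FPKM in TMD8. E2F2, a driver of S phase genes, was higher by 2.23. CDKN2A, an inhibitor of CDK4 and CDK6, was below the filter, at 0.19 and 0.268 FPKM in OCI-LY10 and listed at 0 in TMD8. Adding the labelled control library left 2 higher and 1 lower.

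Replication-dependent histone genes had the highest list median, 2.52, with 15 of 20 tested members higher and 1 lower. HIST1H4B stood at 29.1 and 50 FPKM in OCI-LY10 and 0.349, 1.56 and 0.652 FPKM in TMD8 (4.45, SE 0.34, limma adjusted p = 0.000214). HIST1H1B, which encodes a linker histone, stood at 21.1 and 33 FPKM and 1.99, 0.977 and 1.37 FPKM. In both genes shRNA 16 gave the higher value, and over the list its median above TMD8 was 2.78, against 2.26 for shRNA 10. HIST1H2BH was the 1 lower member, at 0.426 and 0 FPKM against 4.47, 3.15 and 3.17 FPKM. Histone genes are near copies of each other, so how reads were divided among them is uncertain. The library labelled control shRNA stood with OCI-LY10 here, at a median of 2.33, and with it 15 were higher. The small RNA share was also higher in each OCI-LY10 library than in TMD8. Within TMD8 it rose from 22.5% to 28.7% and 43.3% over the columns, while the list median fell from 0.27 to 0.02 and −0.21. Its part in the result was not tested.

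Glycolysis genes were higher in OCI-LY10 in 16 of 23 cases, with a median of 0.83. By limma 0 were lower, and 1 was at an unadjusted p below 0.05. ENO2, an enolase, stood at 55.3 and 73.6 FPKM in OCI-LY10 and 4.42, 3.43 and 3.7 FPKM in TMD8 (3.75, limma adjusted p = 3.52e-05). SLC16A3, a lactate exporter, stood at 15.3 and 32.9 FPKM and 0.682, 1.15 and 0.94 FPKM. LDHA, which makes lactate, stood at 757 and 839 FPKM and 258, 224 and 334 FPKM (1.57, limma adjusted p = 0.00093). HK2, the hexokinase that starts the pathway, stood at 27 and 32.9 FPKM and 10.6, 11.5 and 12.4 FPKM. LDHB and GPI were not called, with differences of 0.19 and 0.07. Against the third TMD8 column alone 11 were higher, and with the labelled control library added 13, that library's list median being 0.71 above TMD8.

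Sterol and fatty acid genes were higher in 16 of 23 cases and lower in 2, with a median of 0.64. FASN, the fatty acid synthase, stood at 67.9 and 74 FPKM in OCI-LY10 and 16.2, 20.5 and 12.7 FPKM in TMD8 (2.07, SE 0.20, limma adjusted p = 0.000453). ELOVL6, which lengthens fatty acids, stood at 10.1 and 10.8 FPKM and 2.37, 1.82 and 2.25 FPKM. INSIG1, a brake on sterol synthesis, was lower, at 85.4 and 93.8 FPKM against 135, 149 and 119 FPKM (−0.57, limma adjusted p = 0.00864), a call lost without OCI-LY10 shRNA 10 (−0.51, limma adjusted p = 0.0742) and against the third TMD8 column alone (−0.41, limma adjusted p = 0.0664). In the library labelled control shRNA the list median was 0.45 above TMD8, and with that library 10 were higher and 1 lower.

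Interferon-stimulated genes were higher in 21 of 35 cases and lower in 4, with a median of 1.28. IFI44 stood at 16.5 and 17.2 FPKM in OCI-LY10 and 0.0261, 0.0276 and 0.0658 FPKM in TMD8 (4.10, SE 0.10, limma adjusted p = 7.54e-06). MX1, an antiviral GTPase, stood at 114 and 110.0 FPKM and 16.4, 20 and 17.5 FPKM (2.58, limma adjusted p = 3.41e-05). ISG15 stood at 109 and 114 FPKM and 46.7, 44.4 and 32 FPKM. IFITM1, a membrane protein that blocks viral entry, had the reverse pattern, listed at 0 in OCI-LY10 and at 20.1, 22.1 and 19.6 FPKM in TMD8. OAS1, OAS2 and IFI16 were not called, with differences of 0.002, −0.28 and −0.11. Of the upstream factors, IRF7 was higher by 1.20 and IRF9 by 0.91, while STAT2 was not called (−0.23, limma adjusted p = 0.0758). The library labelled control shRNA had a list median 0.81 above TMD8 but held 0.0958 FPKM of LY6E and 34.3 FPKM of IFITM1. With it 13 were higher.

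The labelled control library thus did not take the same side throughout. On the histone, replication, interferon, glycolysis and sterol lists its median was on the side of OCI-LY10. On the lists of imprinted, germinal centre, adhesion and cytokine genes it was within 0.21 of TMD8 on the log2 scale. On the B-cell lineage, activated-type, plasma cell and TNF receptor lists it lay below every TMD8 column, at −0.25, −0.43, −0.42 and −0.42. Both STAT3 shRNA libraries had medians above the TMD8 mean on these lists. What part this library, its line or its table has in these lists was not tested.

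**Figure D3:**
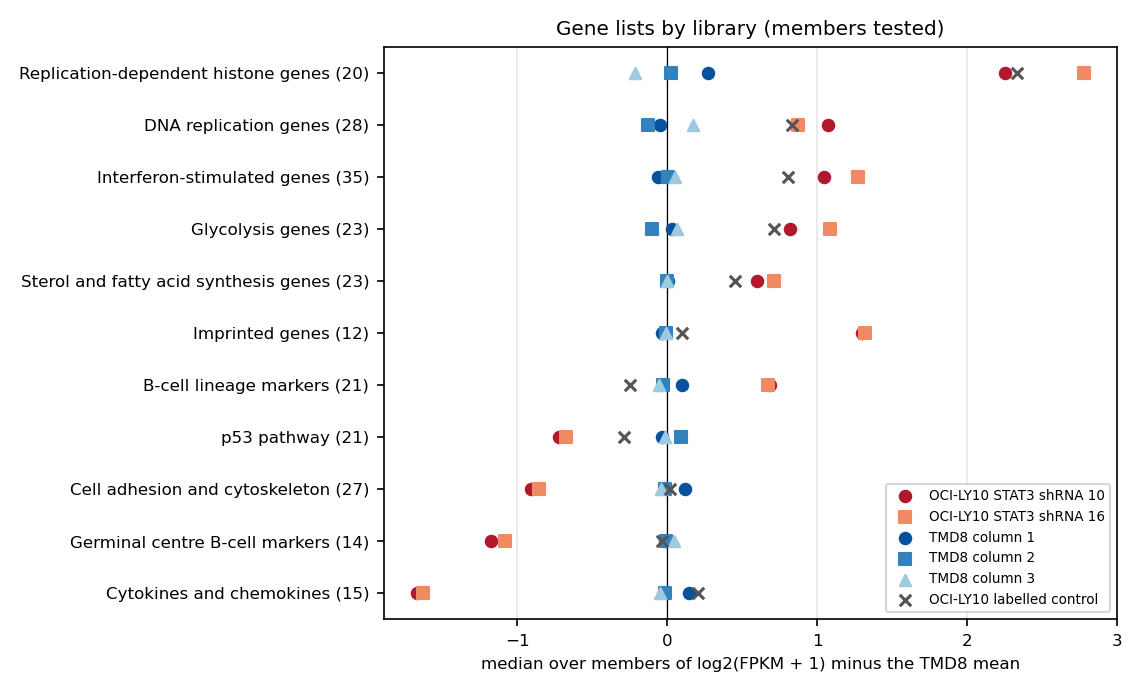
Median over the tested members of 11 gene lists of log2(FPKM + 1) minus the TMD8 mean, 1 point per library. The labelled OCI-LY10 control (cross) lies near the OCI-LY10 STAT3 shRNA points on the upper 5 lists and nearer to TMD8 on the lower 6. On the B-cell lineage list the cross lies below every TMD8 point, away from the OCI-LY10 STAT3 shRNA points.

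Cytosolic ribosomal protein genes were lower in 30 of 47 cases and higher in 3, with a median of −0.48. Against the third TMD8 column alone 15 were lower, and with the labelled control library added 9. RPS15 was farthest apart, at 781 and 947 FPKM in OCI-LY10 and 6826, 6163 and 3929 FPKM in TMD8 (−2.67, limma adjusted p = 0.000491), and RPS25 was higher by 0.80. These genes have many pseudogene copies, so how reads were divided is uncertain. Subunits of mitochondrial complexes I to V were lower in 17 and higher in 4 of 39 cases, with a median of −0.22. ER chaperones and stress genes were higher in 10 and lower in 5 of 27 cases. HYOU1, an ER chaperone, stood at 93.1 and 93.3 FPKM in OCI-LY10 and 13.3, 13.3 and 15.6 FPKM in TMD8 (2.65, limma adjusted p = 2.78e-05), and HSPA5, the chaperone BiP, was higher by 1.84. SEL1L, which clears misfolded proteins from the ER, was lower by 1.54 on the log2 scale.

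Chromatin regulators mutated in lymphoma were higher in 10 and lower in 5 of 23 cases, with a median of 0.34, or 0.17 against the third TMD8 column alone. MEF2B, a transcription factor upstream of BCL6, stood at 19.3 and 17.5 FPKM in OCI-LY10 and 406, 318 and 202 FPKM in TMD8 (−3.94, limma adjusted p = 0.000186). HDAC9 was listed at 0 in OCI-LY10 and stood at 4.88, 5.67 and 6.5 FPKM in TMD8, while HDAC1 was higher in OCI-LY10, at 87.6 and 80.5 FPKM against 32, 27.5 and 29.9 FPKM. EZH2, the H3K27 methyltransferase, was lower by 0.66 on the log2 scale (limma adjusted p = 0.00599), a call lost against the third TMD8 column alone (limma adjusted p = 0.0575). Imprinted genes were higher in 8 and lower in 2 of 12 cases, and 22 more were below the filter. Adding the labelled control library left 0 calls by limma, with 4 higher and 0 lower at an unadjusted p below 0.05. MEST stood at 30.8 and 29 FPKM in OCI-LY10 and 0.0204, 0 and 0 FPKM in TMD8, while NAP1L5 was listed at 0 in OCI-LY10 and stood at 2.3, 2.43 and 3.54 FPKM in TMD8. HOX and TALE homeobox genes were lower in 6 and higher in 3 of 11 cases, and HOXB7 stood at 9.04 and 6.55 FPKM against 0, 0.0496 and 0 FPKM. Of 7 cancer-testis genes tested, 3 were higher and 3 lower, among them PRAME, at 14.2 and 19.3 FPKM in OCI-LY10 and 121, 119.6 and 115 FPKM in TMD8 (−2.77, limma adjusted p = 5.74e-05). Over the imprinted list the library labelled control shRNA lay 0.10 above TMD8, against 1.30 and 1.32 for the STAT3 shRNA libraries.

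Some genes known from T and NK cells were also on different sides. GZMB, or granzyme B, stood at 9.39 and 11.8 FPKM in OCI-LY10 and 95.2, 71.9 and 122 FPKM in TMD8. PRF1, or perforin, was at 7.71 and 10.7 FPKM and 0.186, 0.124 and 0.174 FPKM. CD5, an antigen of T cells and some B cells, was at 0 and 0.0218 FPKM and 4.52, 3.6 and 7.05 FPKM. The T cell defining markers CD3D and CD2 were listed at 0 in all 5 libraries, and 12 of the 16 genes on that list were below the filter.

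**Figure D4:**
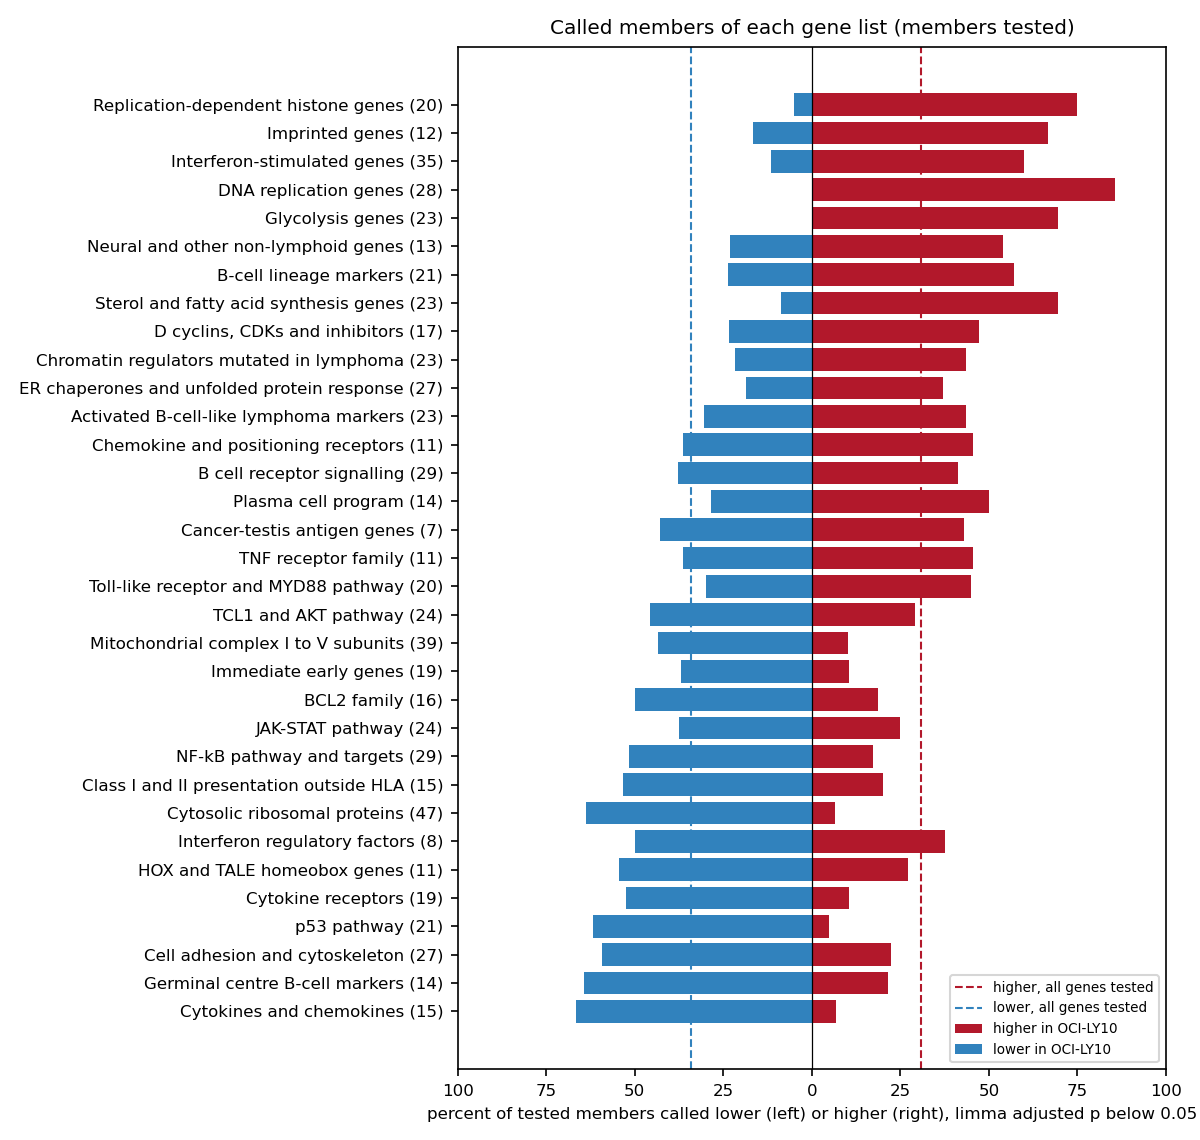
Percent of the tested members of each gene list called lower (left) or higher (right) in OCI-LY10 than in TMD8 (limma adjusted p below 0.05), with the number tested in brackets. Dashed lines give the shares over all genes tested, 30.7% higher and 34.1% lower, and DNA replication and glycolysis genes have no bar on the left.

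Genes that stood next to each other often differed in the same direction. With 10815 genes in the order of the RefSeq gene table, 182 runs of 3 or more neighbours were all called at least 2-fold the same way, 72 higher and 110 lower, holding 748 genes. Single genes met that rule in 13.4% (higher) and 16.8% (lower) of cases. The 4 longest runs held 20, 19, 15 and 11 genes.

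The longest was a cluster of 20 genes from ZNF808 to MYADM, all higher in OCI-LY10, with a median of 2.79. It holds 18 ZNF genes, most of them known as zinc finger repressors of the KRAB type, which silence transposable elements. ZNF83 stood at 9.81 and 9.42 FPKM in OCI-LY10 and 0, 0.0151 and 0 FPKM in TMD8 (3.40, SE 0.10, limma adjusted p = 1.34e-05). ZNF468 stood at 9.14 and 8.09 FPKM and 0.0205, 0.011 and 0 FPKM. ZNF160 stood at 9.97 and 12.7 FPKM and 0.0725, 0.0649 and 0.112 FPKM (3.50, limma adjusted p = 2.46e-05). The pattern was of presence against near absence, since 16 of the 20 were at 0.5 FPKM or less in every TMD8 column. ZNF611, ZNF765, TPM3P9 and ZNF761 were the exceptions, and ZNF611, at 3.58 and 3.28 FPKM against 0.738, 0.809 and 1.51 FPKM, was the closest. MYADM, the last of the run, is a membrane protein gene and stood at 6.31 and 7.14 FPKM and 0.0451, 0.0226 and 0.018 FPKM. The library labelled control shRNA was nearer to TMD8 in 19 of the 20. Against the third TMD8 column alone 19 of 20 stayed at least 2-fold higher, and with the labelled control library added 1 did. Genes of the cluster resemble each other in sequence, so how reads were divided among them is uncertain.

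Start regions of 3 genes of this run, also chosen with the values known, are shown because the genes were higher together. They are RefSeq stretches (GRCh38.p14) of the 250 bases before each start, 5′ to 3′, all on the minus strand, with each CG in capitals. ZNF83 lies at chr19:52690497-52690746 and holds 23 of them, ZNF468 at chr19:52857620-52857869 holds 23, and ZNF160 at chr19:53103423-53103672 holds 26.
ZNF83: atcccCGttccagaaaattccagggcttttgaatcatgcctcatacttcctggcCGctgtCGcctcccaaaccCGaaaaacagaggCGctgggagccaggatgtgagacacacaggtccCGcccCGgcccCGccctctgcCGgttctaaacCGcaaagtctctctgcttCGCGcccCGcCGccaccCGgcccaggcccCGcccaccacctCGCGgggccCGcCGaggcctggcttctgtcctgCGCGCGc
ZNF468: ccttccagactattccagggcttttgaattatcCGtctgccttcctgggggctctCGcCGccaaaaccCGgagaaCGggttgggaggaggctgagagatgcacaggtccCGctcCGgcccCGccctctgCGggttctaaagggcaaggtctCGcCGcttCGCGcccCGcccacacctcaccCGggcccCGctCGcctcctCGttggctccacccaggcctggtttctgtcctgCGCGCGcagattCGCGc
ZNF160: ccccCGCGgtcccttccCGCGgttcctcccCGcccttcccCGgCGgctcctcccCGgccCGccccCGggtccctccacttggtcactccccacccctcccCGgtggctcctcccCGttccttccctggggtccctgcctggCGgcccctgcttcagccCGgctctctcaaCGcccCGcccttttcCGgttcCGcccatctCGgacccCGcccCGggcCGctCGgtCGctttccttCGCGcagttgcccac

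Over the 17 genes of the run with a RefSeq start region, windows of 300 bases (250 before and 50 after the start) held between 17 and 31 CG dinucleotides, with a median of 26. The median over 8866 tested genes was 27. Of 325 ZNF genes tested outside the run, 111 were higher in OCI-LY10 and 95 lower, 34.2% and 29.2% against 30.7% and 34.1% of all genes. At 2-fold or more, 72 were higher and 33 lower, 22.2% and 10.2% against 13.4% and 16.8% of all genes. These include shorter runs. A run of 9 from ZNF101 to ZNF85 was higher with a median of 2.15, and another of 7 from ZNF708 to ZNF254 with a median of 2.67. In the first of these, ZNF93 stood at 7.76 and 8.54 FPKM in OCI-LY10 and was listed at 0 in TMD8. In the second, ZNF91 stood at 5.6 and 5.18 FPKM and was listed at 0 in TMD8. The labelled control library was nearer to TMD8 in all 9 genes of the first.

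The next run held 19 genes from YES1 to ANKRD12, all lower in OCI-LY10, with a median of −1.72. Here most genes were expressed in both lines. MYL12A, a myosin light chain, stood at 56.1 and 52.9 FPKM in OCI-LY10 and 332, 317 and 338 FPKM in TMD8 (−2.57, limma adjusted p = 1.71e-05), and its neighbour MYL12B at 105 and 108 FPKM and 288, 296 and 317 FPKM. NDC80, of the kinetochore, stood at 26.1 and 21 FPKM and 70.9, 63.2 and 67.9 FPKM, and SMCHD1, a silencer of the inactive X chromosome, at 12.4 and 11.4 FPKM and 27, 30.5 and 31.8 FPKM. Just 4 of the 19 were at 0.5 FPKM or less in both OCI-LY10 libraries. For the others the difference was one of degree, as the plot of runs shows.

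The run of 11 from CHMP1B to SEH1L followed in the same order, with 5 tested genes between. Its median was −2.22. PTPN2, the JAK-STAT phosphatase, stood at 13.9 and 15.3 FPKM in OCI-LY10 and 73.1, 71.4 and 80.3 FPKM in TMD8, and PSMG2, a proteasome assembly factor, at 26.4 and 26.5 FPKM and 139.9, 136 and 107 FPKM. Of the 5 genes between, all had negative differences and 4 were called. The gene not called was NAPG (−0.67, limma adjusted p = 0.0569). Every tested gene from YES1 to SEH1L in this order thus had a negative difference. The run of 15 from KBTBD2 to VPS41 had a median of −1.71, with NT5C3A at 6.35 and 7.37 FPKM against 54.4, 39.3 and 49.8 FPKM. The labelled control library was nearer to TMD8 in 18 of 19, 10 of 11 and 14 of 15 genes of these lower runs. With it added to OCI-LY10, 3, 3 and 4 of them stayed at least 2-fold lower.

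**Figure D5:**
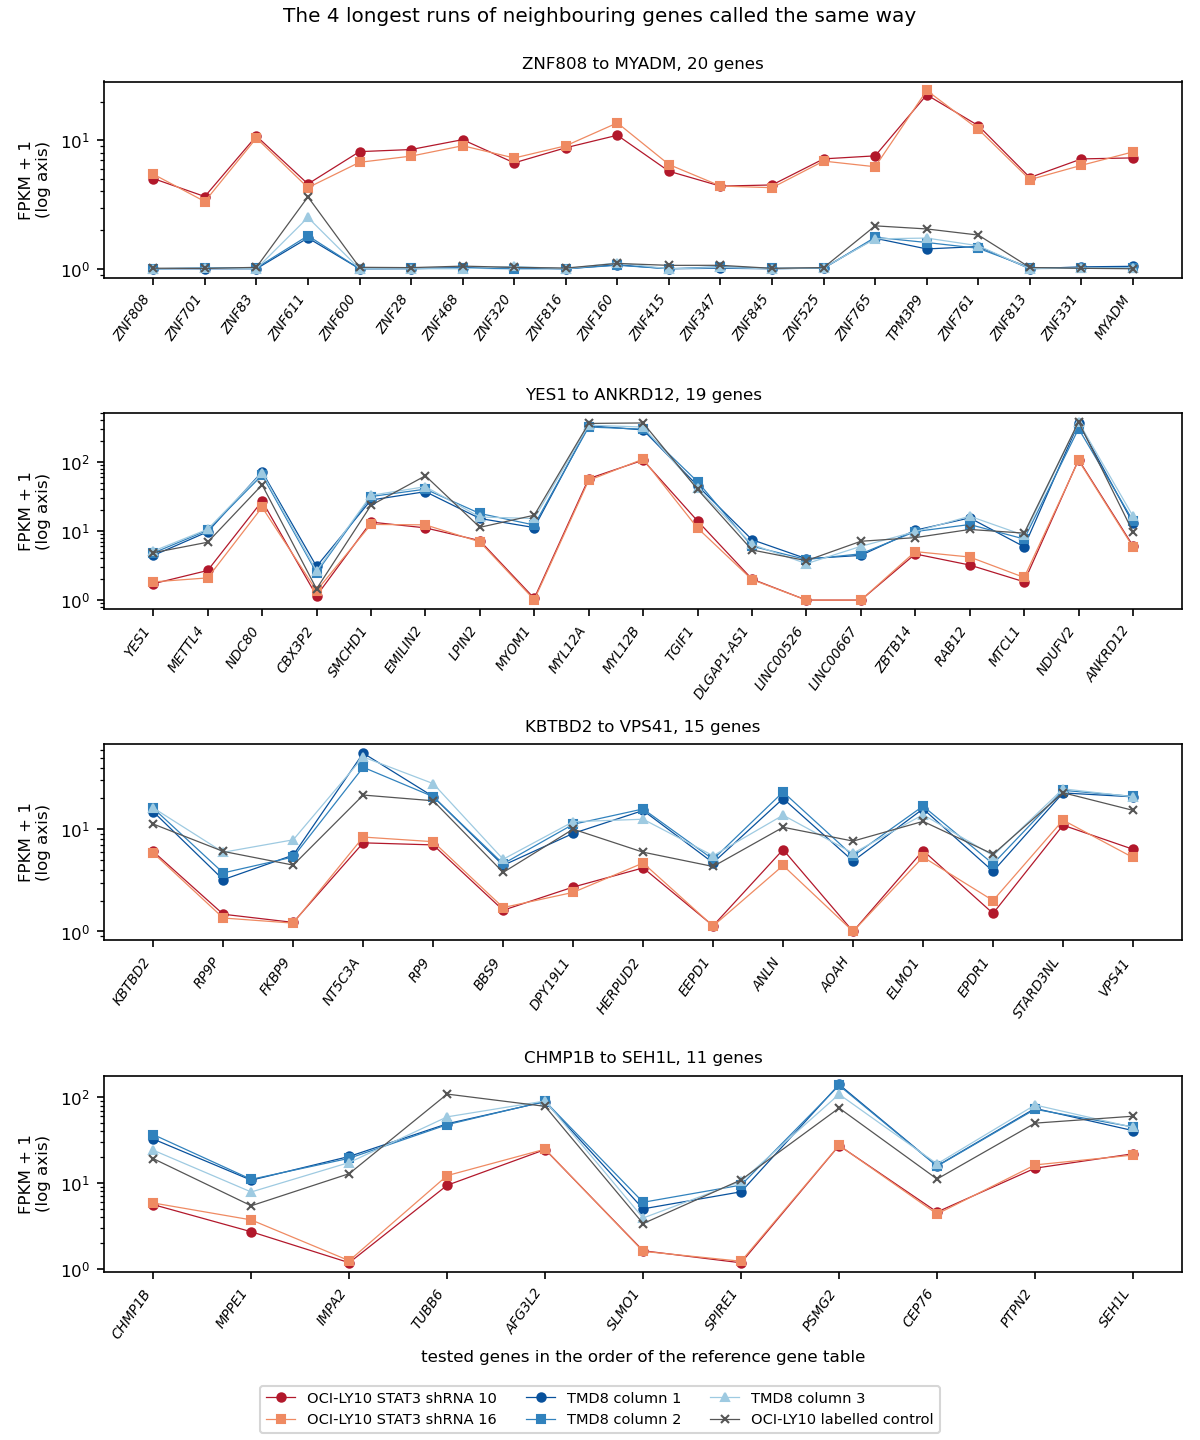
FPKM + 1 (log axis) of the genes in the 4 longest runs of neighbours called at least 2-fold the same way, in gene order, 1 line per library. In the top panel TMD8 and the labelled OCI-LY10 control lie near 1 for most genes while gene means of the OCI-LY10 STAT3 shRNA libraries run from 2.50 to 22.6 FPKM. In the lower panels the gap varies from gene to gene, with log2 differences from −3.62 to −1.04, −2.62 to −1.04 and −3.98 to −1.01.

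Shorter runs included genes already described. Histone genes formed 4 runs, of 8, 8, 7 and 5, which were higher with medians of 2.61, 2.56, 2.97 and 2.54. In the longer 3 the labelled control library was nearer to OCI-LY10 in every gene. HYOU1 lay in a run of 9 higher genes from TRAPPC4 to HINFP with a median of 1.30. HDAC1 and LCK ended a run of 7 higher genes with a median of 1.47. The complement regulators CD55 and CR1 lay in a run of 7 lower genes from PIGR to CR1L with a median of −1.94.

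Start regions with few CG dinucleotides were more common among genes that differed, as a description without a test. A 300-base window with at most 5 CG was found for 10.8% of genes seen in OCI-LY10 alone, 13.3% of those seen in TMD8 alone and 5.98% of all tested genes. These were 10 of 93, 15 of 113 and 530 of 8866 genes with a window. Among genes at least 2-fold apart the share was 9.12% (higher) and 9.91% (lower), against 4.49% of the rest. The motif TTCNNNGAA, the form of site bound by STAT proteins and the same on both strands, occurred in the window for 6.21% of all tested genes. It occurred for 4.30% of genes seen in OCI-LY10 alone and 2.65% of those seen in TMD8 alone. These were just 4 of 93 and 3 of 113 genes, too few to compare the shares. The windows of UCHL1, TCL1A, IL10, CD86, ZNF83, ZNF468 and ZNF160 do not hold these letters. A match in these windows is a match of letters and not a site.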

How the data were processed

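Per the labels' protocols, the kit behind the RNA-seq libraries was TruSeq RNA. The authors deposited FPKM per gene symbol in 1 table for each cell line. TopHat, Bowtie2 and the build hg19 are named in the submitters' processing notes without a role or version. Which program and annotation gave the FPKM values, and whether the tables were scaled jointly, is not given in the sources used here. Both tables hold 25277 rows and 25275 symbols, joined by symbol, and 26 symbols had been turned into dates. Of the symbols, 22379 were current, 1676 older and 1220 unmatched in the RefSeq gene table.

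A gene was kept where its 5 values averaged 1 FPKM or more, which left 11326, and log2(FPKM + 1) was compared with limma 3.58.1 (trended variance, Benjamini-Hochberg adjustment) in R 4.3.3. The fit had 3 residual degrees of freedom and was tested on simulated data. Tables and figures were made with Python 3.11.15 and pandas 2.3.3. Named genes were STAT3 and a fixed set, the 12 widest gaps between groups in each direction (without small RNA, HLA, immunoglobulin and T cell receptor segment genes, date symbols, unnamed LOC and LINC symbols, XIST and Y-linked genes), up to 4 called members of each of 36 gene lists, and the 4 longest runs. Other genes named, and the printed start regions, were picked with their values in view. The members and lists were chosen with earlier results of these data known. Alternatives were median-of-ratios scaling, quantile normalization, pseudocounts, filters, genes at 0 or small RNA genes left out, no variance trend, each library left out, and the labelled control library added. Comparison with the third TMD8 column alone was added after seeing the data and assumes that the lone library varies like OCI-LY10.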

Additional observations from a re-analysis of the deposited data

How the results depend on the processing

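No paired analysis was possible because the TMD8 columns carry no shRNA numbers. Adding the OCI-LY10 library labelled control shRNA to its line left 954 genes higher and 1386 lower, 468 and 704 of them at 2-fold or more, and 24 genes seen in OCI-LY10 alone and 2 in TMD8 alone. A pseudocount of 5 FPKM left 839 and 903 genes at 2-fold or more, and a filter at a mean of 5 FPKM left 996 and 1187. Thresholds of 10 and 0.1 FPKM gave 66 and 42 genes seen in 1 group alone, and thresholds of 2 and 0.5 FPKM gave 312 and 392. STAT3 was called at −1.81 with genes listed at 0 left out or small RNA genes left out (limma adjusted p = 0.0285 and 0.0347), at −0.98 against the third TMD8 column alone and at −0.96 there with median-of-ratios scaling (limma adjusted p = 0.0168 and 0.0171). With each library left out in turn it ranged from −2.23 to −1.04.

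Of 223 named genes tested in the comparison itself, 159 kept their sign but lost their call with the labelled control library added. BMF lost its call there with a change of sign. A few named differences changed sign. BMF, at 0.76 in the comparison itself, was −0.18 with the labelled control library added. MYC was −0.16 under quantile normalization and −0.0024 with that library added, and ranged from −0.081 to 0.16 with each library left out. BCL2 ranged from −0.13 to 0.0019 with each library left out. MCL1 was 0.026 under median-of-ratios scaling, 0.12 against the third TMD8 column alone and 0.14 there with that scaling, and ranged from −0.078 to 0.062 with each library left out. The cause of these shifts was not tested. Absolute depth is unknown, so the precision of low values could not be set.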

Other observations

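Immediate early genes, induced within minutes of a stimulus, were lower in OCI-LY10 in 7 and higher in 2 of 19 cases, with a median of −0.23 that became 0.12 against the third TMD8 column alone. Of the TNF receptor family 5 of 11 were higher and 4 lower. Of the TCL1 and AKT pathway 7 of 24 were higher and 11 lower, with TCL1A and TCL1B the lowest of them. Interferon regulatory factors were higher in 3 and lower in 4 of 8 cases. Of 13 neural and other non-lymphoid genes tested 7 were higher and 3 lower, and 14 were below the filter. Their median was 0.76, or −0.05 without the 2 members listed at 0 throughout 1 group. DCN, a matrix protein of fibroblasts, stood at 0.0488 and 0 FPKM in OCI-LY10 and 3.21, 4.48 and 2.79 FPKM in TMD8, and PECAM1, an endothelial and leukocyte adhesion protein, at 5.43 and 6.05 FPKM and 0.461, 0.223 and 0.2 FPKM.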
